A study of Mus with 12 samples.

Results

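The insulin-like growth factor (IGF) system of the pregnant mouse uterus is described here through 10 genes: the ligands Igf1 and Igf2, the receptors Igf1r and Igf2r, and the binding proteins Igfbp1 to Igfbp6. A gene was taken where its symbol stood in the gene name of a row that also held an Ensembl transcript. This gave 10 of the 87235 rows of the implantation stage table and 10 of the 40787 rows of the labor stage table, 1 row per gene in each. RNA had been sequenced from the whole uteri of 12 pregnant mice of the outbred ICR strain, with 1 mouse per library and 3 mice on each of 4 days of pregnancy. E0.5 and E4.5 form the implantation stage, and E15.5 and E18.5 form the labor stage. The study paired the days in this way to look for RNAs whose level goes with progesterone, which is low on E0.5 and E18.5. The series gives the age of the mice as 8 weeks, and the methods state an age at mating only, so the mice of the late days were older when collected. No group had a treatment or a modified allele, and the sources used here do not say whether fetuses and membranes were removed from the late uteri.

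IGF1 and IGF2 are secreted growth factors that act mainly through the tyrosine kinase receptor IGF1R, which signals through IRS adaptors and the PI3K and AKT kinases. IGF2R has no kinase domain and carries IGF2 to lysosomes. The IGFBPs bind both ligands outside the cell, and proteases such as PAPPA and PAPPA2 cut some of them and free the ligand. In the uterus Igf1 is a classical estrogen-responsive gene, while Igf2 is an imprinted gene expressed strongly in the placenta and fetal membranes.

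The row positions are those of the implantation stage table, whose coordinates match the mouse build GRCm38. The labor stage table gives no coordinates. Igf1 covers 87858265 to 87937042 on the plus strand of chromosome 10, and Igf2 covers 142650766 to 142666816 on the minus strand of chromosome 7. Igf1r covers 67952827 to 68233668 on the plus strand of chromosome 7, and Igf2r covers 12682406 to 12769664 on the minus strand of chromosome 17. The binding protein genes include 2 convergent neighbour pairs. Igfbp2 (72824503 to 72852474, plus strand) and Igfbp5 (72857932 to 72874884, minus strand) lie 5457 bases apart on chromosome 1. Igfbp1 (7197782 to 7202546, plus strand) and Igfbp3 (7206086 to 7213923, minus strand) lie 3539 bases apart on chromosome 11. Igfbp4 lies at 99041244 to 99054392 on chromosome 11, and Igfbp6 lies at 102144362 to 102149511 on chromosome 15, both on the plus strand. Each row counts the transcripts assembled for it together. The rows of Igf1r, Igf2r, Igfbp2, Igfbp3, Igfbp4 and Igfbp6 begin downstream of the gene start in RefSeq, by most for Igfbp3 and Igfbp4. Further rows with a member's name but no Ensembl transcript were not counted with it, 1 for Igf1 (at most 1.94 FPKM), 1 for Igfbp4 (at most 2.47 FPKM) and 15 for Igf1r (together 85.2 to 128 FPKM per library).

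The implantation stage libraries held 58020989 to 70906881 counts each. The labor stage table holds only FPKM (fragments counted per transcript length and library size), so its depth is not known. None of the 11 uterus markers checked, among them Esr1, Pgr, Hoxa10 and Myh11, was at 0 on any day. Some libraries stood apart in their marker sums. In E4.5 replicate 3 the summed level of 10 ovary markers was 872 FPKM, against 5.65 and 6.36 FPKM in the other E4.5 libraries and 4.49 to 6.58 FPKM at E0.5, and 6 oviduct markers summed to 93.9 FPKM against 9.47 and 13.7 FPKM. The 11 uterus markers summed to 171 FPKM in that library, against 718 and 546 FPKM in the other E4.5 libraries. In E15.5 replicate 1 the 7 decidua markers summed to 1363 FPKM, of which Prl8a2 made up 1342 FPKM, against 102 and 111 FPKM in the other E15.5 libraries, and the 8 yolk sac and fetal membrane markers summed to 2.32 FPKM against 113 and 811 FPKM. In E15.5 replicate 3, which had the highest yolk sac sum, the 9 liver markers summed to 175 FPKM, against 7.69 and 29.1 FPKM in replicates 1 and 2. In E0.5 replicate 1 they summed to 82.1 FPKM, against 24.6 and 22.7 FPKM in replicates 2 and 3. The oviduct markers summed to 26.5 FPKM there, against 12.7 and 13.2 FPKM. Values without E4.5 replicate 3 or E15.5 replicate 1 are given beside the members that they move.

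**Figure D1:**
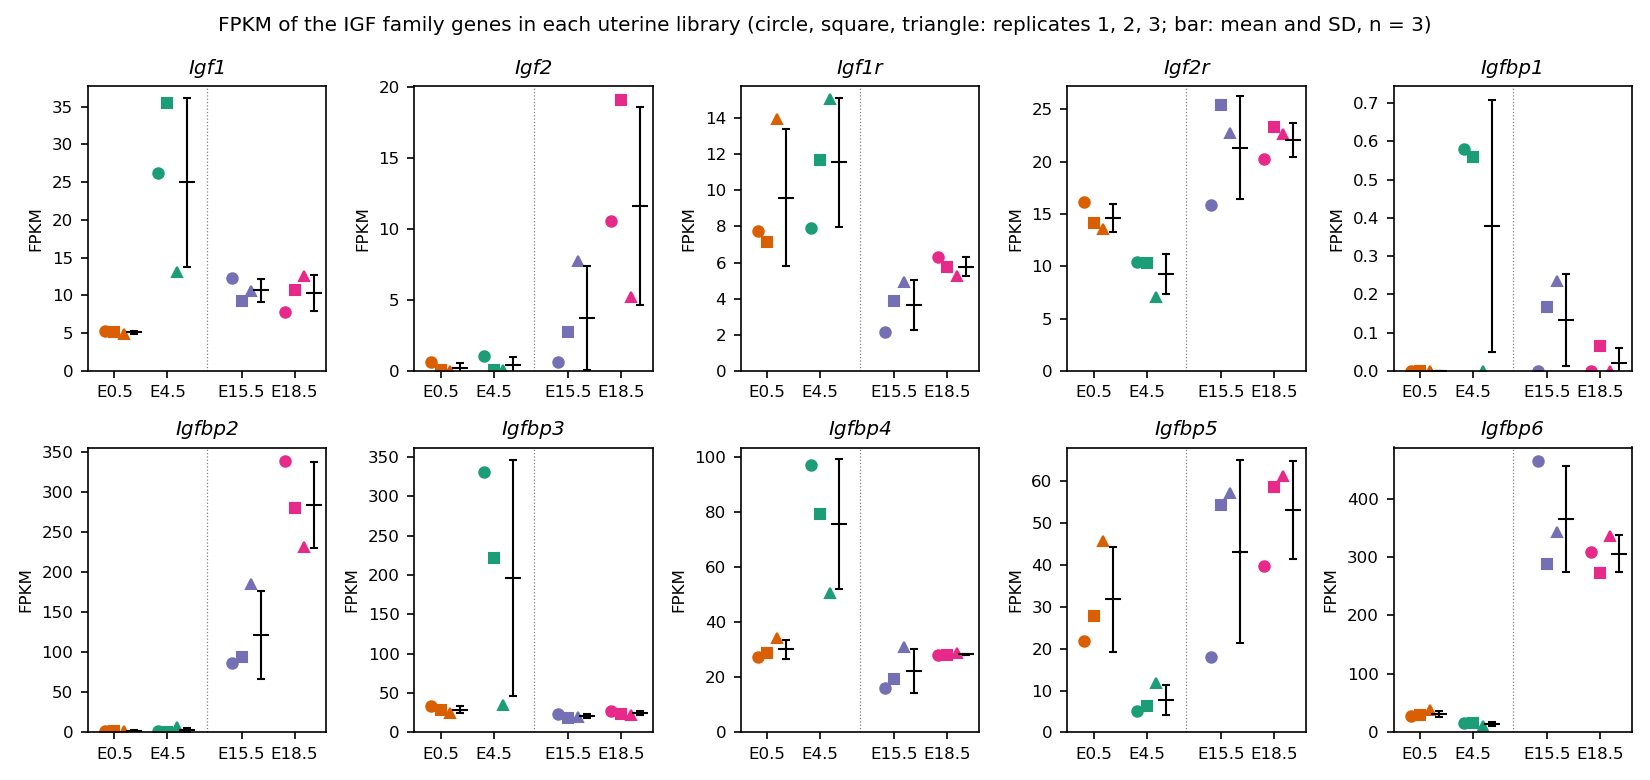
FPKM (linear axis, separate scale per gene) of the 10 IGF family genes in each library by day of pregnancy; circle, square and triangle mark replicates 1, 2 and 3, the bar beside them gives the mean and SD (n = 3), and the dotted line parts the separately normalized tables. Igf1, Igfbp3 and Igfbp4 sit higher at E4.5 than at E0.5 in every library, Igfbp5 and Igfbp6 sit lower, and Igfbp2 sits higher at E18.5 than at E15.5.

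FPKM is scaled by transcript length, so levels can be ordered between genes within a day. At E0.5 the binding proteins Igfbp6, Igfbp5, Igfbp4 and Igfbp3 led with mean levels of 31.8, 31.8, 30.2 and 29.0 FPKM, and their replicate ranges overlapped one another in that order. Igf2r (14.6 ± 1.35 FPKM, SD, n = 3) and Igf1r (9.59 ± 3.77 FPKM, SD, n = 3) came next and overlapped, followed by Igf1, Igfbp2 and Igf2. The place of Igf1r leaves out the 15 further rows with its name, which summed to 120 to 128 FPKM at E0.5. At E4.5 Igfbp3 (196 ± 150 FPKM, SD, n = 3) and Igfbp4 (75.7 ± 23.6 FPKM, SD, n = 3) headed the order with overlapping ranges. Igf1 followed at 25.0 ± 11.2 FPKM (SD, n = 3), with a range below that of Igfbp4 and overlapping that of Igfbp6. From Igf1 down to Igfbp1 each gene overlapped the next. At E15.5 Igfbp6 (365 ± 90.5 FPKM, SD, n = 3) lay above Igfbp2 (122 ± 54.8 FPKM, SD, n = 3), and Igfbp2 lay above all other members, without overlap. At E18.5 the ranges of Igfbp6 (305 ± 31.7 FPKM, SD, n = 3) and Igfbp2 (284 ± 53.5 FPKM, SD, n = 3) overlapped, and Igfbp5 followed at 53.2 ± 11.7 FPKM (SD, n = 3). Igfbp1, which decidua and liver are known to secrete, was the lowest member by mean on all 4 days.

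The first comparison asked how the IGF genes differ between the day after mating (E0.5) and the day of implantation (E4.5). Igf1 was 4.85-fold higher at E4.5 and was the 1 member with an adjusted p under 0.05, while the other settings tried called between 0 and 6 members. The binding proteins went in both directions, with Igfbp3 and Igfbp4 higher at E4.5 and Igfbp5 and Igfbp6 higher at E0.5 in every library, but their adjusted p-values lay between 0.0664 and 0.135 (edgeR quasi-likelihood F-test, Benjamini-Hochberg adjustment over 59732 rows). By the study's criterion, a log2 fold change of 1 or more in either direction at an unadjusted p under 0.05, 6 of the 10 members were called, against 12.2% of all tested rows and 14.6% of protein-coding rows. By an adjusted p under 0.05, 1 of 10 was called, against 1.22% of all rows and 2.94% of protein-coding rows. Log2 fold changes are E0.5 over E4.5 on the count scale, so a negative value means higher at E4.5.

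Igf1 had 5.31, 5.19 and 4.89 FPKM in the E0.5 replicates 1, 2 and 3, and 26.2, 35.5 and 13.2 FPKM in the E4.5 replicates 1, 2 and 3. The E0.5 values lay close together, and even the lowest E4.5 library, replicate 3, lay above all of them. Its log2 fold change was -2.28 (standard error, SE, 0.37, adjusted p = 0.0461, edgeR with Benjamini-Hochberg adjustment). Over the alternatives tried its adjusted p ran from 3.25e-07 to 0.200, and leaving out any 1 library other than E4.5 replicate 3 gave an adjusted p between 0.0948 and 0.200 (edgeR), with log2 fold changes between -2.60 and -1.97 over all 6 left-out libraries. In bulk tissue, fewer cells of a type and less RNA per cell cannot be told apart. The 3 genes whose log2 FPKM followed Igf1 most closely over these 6 libraries were Rab11a, Cntnap1 and Nudt5, with Pearson's r of 0.998, 0.998 and 0.996. The 6 points share the split into 2 days, and 238 of 11681 protein-coding genes reached an r of 0.95.

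Igf2 was low in 4 of the 6 libraries at this stage. It had 0.621, 0.050 and 0.00755 FPKM in the E0.5 replicates 1, 2 and 3 (305, 23 and 5 counts), and 1.08, 0.0294 and 0.0655 FPKM in the E4.5 replicates 1, 2 and 3 (525, 14 and 32 counts). Replicate 1 was the highest library on both days, and the groups overlapped. The log2 fold change was -0.85 (SE 1.69, adjusted p = 0.833, edgeR with Benjamini-Hochberg adjustment), and it ran from -3.64 without E0.5 replicate 1 to 2.22 without E4.5 replicate 1, with -1.36 without E4.5 replicate 3. The genes closest to Igf2 over these 6 libraries were Ankrd10, Mrpl20 and Phactr4 (r of 0.975, 0.975 and 0.970), and 4 of 11682 genes reached an r of 0.95. Ankrd10 had 8.20 FPKM in E0.5 replicate 1 and 12.7 FPKM in E4.5 replicate 1, against 2.91 to 4.41 FPKM in the other 4 libraries.

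The receptors differed less than Igf1. Igf1r had 7.72, 7.12 and 13.9 FPKM in the E0.5 replicates 1, 2 and 3, and 7.91, 11.7 and 15.1 FPKM in the E4.5 replicates 1, 2 and 3. The groups overlapped, with a log2 fold change of -0.24 (SE 0.33, adjusted p = 0.744, edgeR with Benjamini-Hochberg adjustment), and it lay between -0.629 (without E0.5 replicate 3) and -0.034 (without E4.5 replicate 3) with each library left out. The 15 rows named Igf1r but without an Ensembl transcript summed to 120 to 128 FPKM at E0.5, against 85.2, 116 and 118 FPKM in the E4.5 replicates 1, 2 and 3, so part of the Igf1r reads may have been counted outside the Igf1r row at this stage. Igf2r had 16.2, 14.2 and 13.6 FPKM in the E0.5 replicates 1, 2 and 3, and 10.4, 10.3 and 7.09 FPKM in the E4.5 replicates 1, 2 and 3. All E0.5 libraries lay above all E4.5 libraries, with a log2 fold change of 0.66 (SE 0.22, adjusted p = 0.201, edgeR with Benjamini-Hochberg adjustment). Airn, the antisense transcript that overlaps Igf2r, had 4.56 to 8.28 FPKM at E0.5 and 2.005 to 5.88 FPKM at E4.5. Without a statement that counting used strand, reads in the overlap of the pair cannot be told apart.

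Among the binding proteins higher at E4.5, Igfbp3, the main carrier of IGFs in blood, had 34.1, 28.0 and 24.9 FPKM in the E0.5 replicates 1, 2 and 3, and 331, 222 and 35.5 FPKM in the E4.5 replicates 1, 2 and 3. The groups did not overlap, but E4.5 replicate 3 lay just above the E0.5 libraries, far from the other E4.5 libraries. Igfbp3 had a log2 fold change of -2.78 (SE 0.75, adjusted p = 0.135, edgeR with Benjamini-Hochberg adjustment), which ran from -3.28 without E4.5 replicate 3 to -2.11 without E4.5 replicate 1. Igfbp4, which PAPPA cuts, had 27.4, 28.8 and 34.2 FPKM in the E0.5 replicates 1, 2 and 3, and 97.2, 79.4 and 50.6 FPKM in the E4.5 replicates 1, 2 and 3. Again the groups did not overlap and E4.5 replicate 3 was the lowest of its group, with a log2 fold change of -1.33 (SE 0.29, adjusted p = 0.0844, edgeR with Benjamini-Hochberg adjustment).

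Igfbp1 had no count in any E0.5 library, and 76, 70 and 0 counts (0.581, 0.558 and 0 FPKM) in the E4.5 replicates 1, 2 and 3. Since E4.5 replicate 3 also had none, the groups overlapped. Against a floor of 3 counts over the E0.5 group, Igfbp1 was at least 48.1-fold higher at E4.5, and at least 71.4-fold higher without E4.5 replicate 3. The adjusted p was 0.225 (edgeR with Benjamini-Hochberg adjustment). With any 1 of the other libraries left out the bound lay between 31.0 and 37.5-fold, and all these bounds cover counting error only.

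Igfbp5 and Igfbp6 had the opposite direction. Igfbp5, the binding protein that attaches to extracellular matrix, had 21.8, 27.8 and 45.7 FPKM in the E0.5 replicates 1, 2 and 3, and 5.01, 6.38 and 11.8 FPKM in the E4.5 replicates 1, 2 and 3. The lowest E0.5 library lay above the highest E4.5 library, with a log2 fold change of 2.07 (SE 0.40, adjusted p = 0.0664, edgeR with Benjamini-Hochberg adjustment). Igfbp6, which prefers IGF2 over IGF1, had 27.8, 29.6 and 37.9 FPKM in the E0.5 replicates 1, 2 and 3, and 15.9, 16.8 and 10.7 FPKM in the E4.5 replicates 1, 2 and 3. The groups did not overlap, with a log2 fold change of 1.14 (SE 0.25, adjusted p = 0.0866, edgeR with Benjamini-Hochberg adjustment). The 7 uterine epithelium markers also summed higher at E0.5, at 270 to 312 FPKM against 83.1 to 183.3 FPKM at E4.5, and 2 of them, Krt8 and Krt19, passed an adjusted p of 0.05 (edgeR). The 6 macrophage markers summed to 77.8 to 86.5 FPKM against 37.7 to 58.2 FPKM, with 1 of 6, Csf1r, past that threshold. All 8 smooth muscle markers had a positive fold change, as did 2 of the 7 stroma markers, and 0 genes of either list passed. The 6 decidua markers tested went in both directions, 3 with a positive and 3 with a negative fold change. Alpl was higher at E0.5 (log2 fold change 3.35, adjusted p = 0.00631, edgeR), and Bmp2 was higher at E4.5 (log2 fold change -3.44, adjusted p = 0.0187, edgeR). The part of epithelial, macrophage and smooth muscle RNA in the Igfbp5 and Igfbp6 values was not tested.

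Igfbp2 had 2.24, 2.16 and 1.27 FPKM in the E0.5 replicates 1, 2 and 3, and 2.01, 0.722 and 6.20 FPKM in the E4.5 replicates 1, 2 and 3. These groups overlapped (log2 fold change -0.63, SE 0.71, adjusted p = 0.693, edgeR with Benjamini-Hochberg adjustment), and the sign of the fold change turned without E4.5 replicate 3 (0.42).

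Without E4.5 replicate 3, the library with the high ovary and oviduct marker sums and the low uterus marker sum, 6 of 10 members had an adjusted p under 0.05 (edgeR with Benjamini-Hochberg adjustment), against 6.08% of all rows under that setting. DESeq2 on all 6 libraries called the same 6 genes, against 9.85% of all rows. Igf1, Igfbp1, Igfbp3 and Igfbp4 were then lower at E0.5, and Igfbp5 and Igfbp6 higher. The log2 fold change became -2.60 for Igf1 (adjusted p = 0.00105, edgeR), -3.28 for Igfbp3 (adjusted p = 0.00145, edgeR) and -1.57 for Igfbp4 (adjusted p = 0.00631, edgeR). It became 2.47 for Igfbp5 (adjusted p = 0.0115, edgeR) and 0.95 for Igfbp6 (adjusted p = 0.0415, edgeR), and the adjusted p of Igfbp1 was 0.0251 (edgeR). With each of the 6 libraries left out in turn the log2 fold change lay between -1.57 and -1.06 for Igfbp4, between 1.69 and 2.47 for Igfbp5 and between 0.95 and 1.25 for Igfbp6. The part of ovary and oviduct RNA in the values of E4.5 replicate 3 was not tested. Smooth muscle markers (8 genes) and stroma markers (7 genes) also summed lower in that library, at 208 and 92.5 FPKM against 804 to 1221 FPKM and 256 to 279 FPKM in the other E4.5 libraries.

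**Figure D2:**
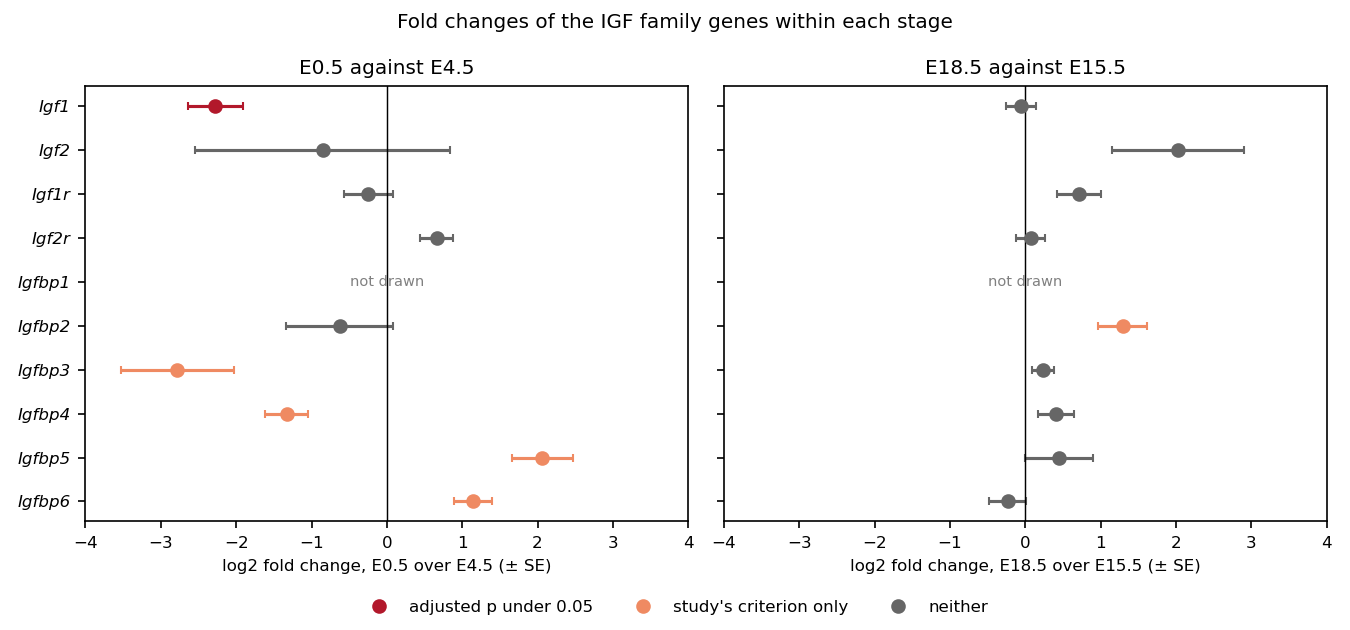
Log2 fold changes (horizontal axis, with standard errors as bars) of the IGF family genes, E0.5 over E4.5 from edgeR on counts at left and E18.5 over E15.5 from limma on log2(FPKM + 0.1) at right, 3 libraries per day. Red marks an adjusted p under 0.05 (Igf1 at left), orange the study's criterion only, grey neither; Igfbp1 is not drawn, since it had no count at E0.5 and was below the level filter at the labor stage.

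The groups did not overlap for 6 of 10 members at this stage (Igf1, Igf2r, Igfbp3, Igfbp4, Igfbp5 and Igfbp6), against 25.2% of all tested rows and 34.9% of protein-coding rows. Of the 10 fold changes, 3 were positive and 7 negative, with a median log2 fold change of -0.74 against -0.01 over all rows. The median was -0.63 without Igfbp1.

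The second comparison asked how the IGF genes differ between late pregnancy (E15.5) and the eve of labor (E18.5). No member passed an adjusted p of 0.05 (limma with Benjamini-Hochberg adjustment over 30928 rows), and 2 of the 9 tested members, Igfbp2 and Igf1r, had an unadjusted p under 0.05, against 12.2% of all tested rows. Igfbp2 was higher in every E18.5 library and was the 1 member called by the study's criterion, against 6.05% of all tested rows and 5.03% of protein-coding rows. Calls by the adjusted p made up 0.0259% of all rows, 8 in number, and 0.0401% of protein-coding rows. Igf1, which differed at the implantation stage, had nearly the same mean on both days. Here a fold change is on the log2(FPKM + 0.1) scale, E18.5 over E15.5, which understates the change of low genes.

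Igf1 had 12.2, 9.21 and 10.6 FPKM in the E15.5 replicates 1, 2 and 3, and 7.87, 10.7 and 12.6 FPKM in the E18.5 replicates 1, 2 and 3. The groups overlapped, with a log2 fold change of -0.06 (SE 0.20, adjusted p = 0.927, limma with Benjamini-Hochberg adjustment), which turned positive without E15.5 replicate 1 (0.04) or E18.5 replicate 1 (0.12). The genes closest to Igf1 over these 6 libraries were Zbtb20, Slmap and Fndc5 (r of 0.983, 0.983 and 0.981), and 14 of 11565 protein-coding genes reached an r of 0.95.

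Igf2 had 0.613, 2.75 and 7.77 FPKM in the E15.5 replicates 1, 2 and 3, and 10.6, 19.1 and 5.24 FPKM in the E18.5 replicates 1, 2 and 3. The highest E15.5 library lay above the lowest E18.5 library, so the groups overlapped. The log2 fold change was 2.03 (SE 0.88, adjusted p = 0.418, limma with Benjamini-Hochberg adjustment) and ran from 1.12 without E15.5 replicate 1 to 2.85 without E15.5 replicate 3. Within each day the order of the libraries by Igf2 was that by the 8 yolk sac and fetal membrane markers, which summed to 2.32, 113 and 811 FPKM in the E15.5 replicates 1, 2 and 3 and to 191, 554 and 99.9 FPKM in the E18.5 replicates 1, 2 and 3. Their leading gene was Afp (alpha-fetoprotein), at 0.366, 80.2 and 586 FPKM in the E15.5 replicates and 135, 427 and 71.8 FPKM in the E18.5 replicates. The 9 liver markers, led by Alb, followed the same order within each day. They summed to 7.69, 29.1 and 175 FPKM in the E15.5 replicates 1, 2 and 3 and to 33.0, 94.7 and 22.8 FPKM in the E18.5 replicates 1, 2 and 3.

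The 14 trophoblast and placenta markers with a row summed to 60.0, 8.26 and 5.22 FPKM in the E15.5 replicates 1, 2 and 3 and to 79.7, 106 and 62.5 FPKM in the E18.5 replicates 1, 2 and 3. Their order was that of Igf2 at E18.5 and its reverse at E15.5. H19, the imprinted neighbour of Igf2, had 4.49, 15.9 and 59.1 FPKM in the E15.5 replicates 1, 2 and 3, in the order of Igf2, and 40.8 to 47.7 FPKM at E18.5. At the implantation stage both marker sums were low: the trophoblast list summed to at most 0.833 FPKM and the yolk sac list to at most 15.2 FPKM, with Afp at 0 in all 6 libraries. The parts of extra-embryonic and liver RNA in the Igf2 values were not tested. The genes closest to Igf2 over the 6 late libraries were Robo1, Arhgef3 and Ik (r of 0.995, 0.994 and 0.993), and 245 of 11565 genes reached an r of 0.95.

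**Figure D3:**
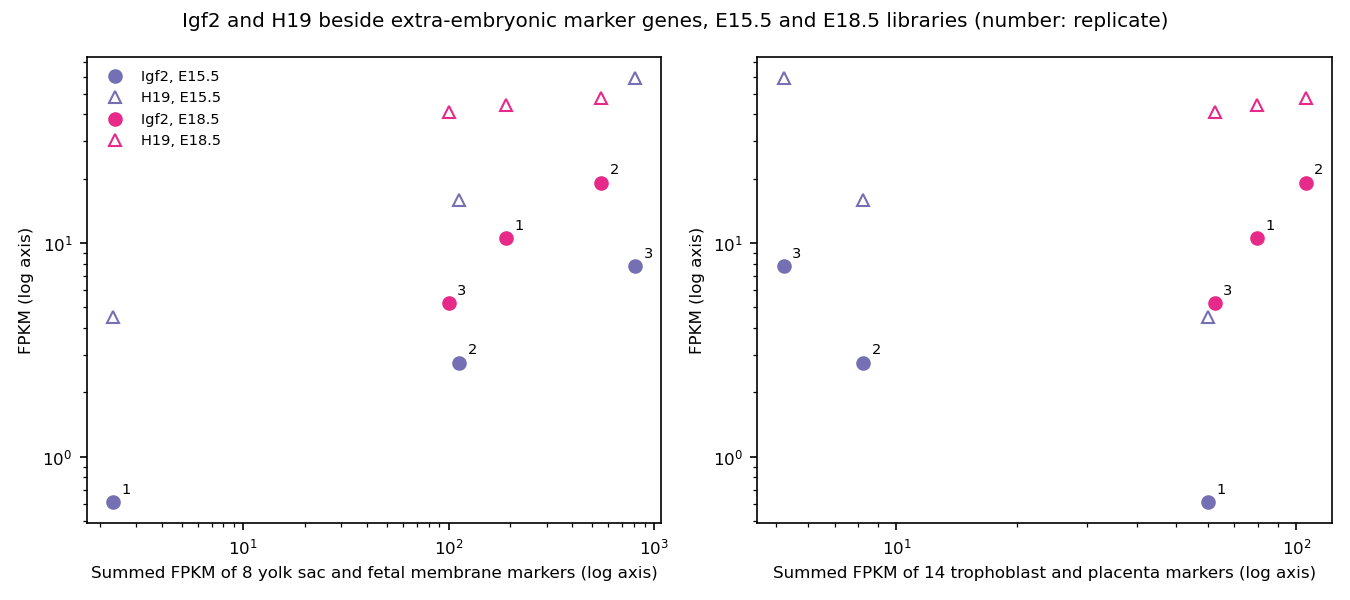
FPKM of Igf2 (filled circles, replicate number beside each) and H19 (open triangles) in the 3 E15.5 and 3 E18.5 libraries against the summed FPKM of 8 yolk sac and fetal membrane markers at left and of 14 trophoblast and placenta markers at right, all on log axes. Within each day Igf2 is higher in libraries with a higher yolk sac sum, and the 9 liver markers, not drawn, give the same order. Against the trophoblast sum this order holds at E18.5 and is reversed at E15.5.

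Among the receptors, Igf1r had 2.18, 3.86 and 4.91 FPKM in the E15.5 replicates 1, 2 and 3, and 6.30, 5.75 and 5.24 FPKM in the E18.5 replicates 1, 2 and 3. All E18.5 libraries lay above all E15.5 libraries, with a log2 fold change of 0.71 (SE 0.29, adjusted p = 0.391, limma with Benjamini-Hochberg adjustment), and it ran from 0.39 without E15.5 replicate 1 to 0.96 without E15.5 replicate 3. Igf2r had 15.8, 25.4 and 22.8 FPKM in the E15.5 replicates 1, 2 and 3, and 20.3, 23.3 and 22.6 FPKM in the E18.5 replicates 1, 2 and 3. The groups overlapped (log2 fold change 0.07, SE 0.19, adjusted p = 0.898, limma with Benjamini-Hochberg adjustment), and the sign turned without E15.5 replicate 1 (-0.13, against up to 0.21 with another library left out).

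Igfbp2 had 86.2, 94.4 and 184.998 FPKM in the E15.5 replicates 1, 2 and 3, and 339, 281 and 232 FPKM in the E18.5 replicates 1, 2 and 3. The lowest E18.5 library lay above the highest E15.5 library. The log2 fold change was 1.29, or 2.45-fold (SE 0.33, adjusted p = 0.203, limma with Benjamini-Hochberg adjustment), and it lay between 1.09 and 1.64 with each library left out. The 7 uterine epithelium markers also lay higher at E18.5, summing to 200 to 422 FPKM at E15.5 and 605 to 834 FPKM at E18.5, and E15.5 replicate 3 and E18.5 replicate 1 were the highest of their days for both. At the earlier stage this did not hold, as E4.5 replicate 3 had the highest Igfbp2 (6.20 FPKM) and the lowest epithelium sum (83.1 FPKM). The trophoblast and placenta sum also lay higher at E18.5, at 62.5 to 106 FPKM against 5.22 to 60.0 FPKM. Its highest libraries were E15.5 replicate 1 and E18.5 replicate 2. The part of epithelial and trophoblast RNA in the Igfbp2 values was not tested. Its convergent neighbour Igfbp5 had 18.01, 54.3 and 57.2 FPKM in the E15.5 replicates 1, 2 and 3, and 39.8, 58.5 and 61.3 FPKM in the E18.5 replicates 1, 2 and 3. For Igfbp5 the groups overlapped (log2 fold change 0.45, SE 0.45, adjusted p = 0.717, limma with Benjamini-Hochberg adjustment), and the value ran from -0.09 without E15.5 replicate 1 to 0.74 without E15.5 replicate 3.

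Igfbp6 was the most abundant member at E15.5, with 465, 288 and 342 FPKM in replicates 1, 2 and 3, and had 308, 272 and 336 FPKM in the E18.5 replicates 1, 2 and 3. The groups overlapped, with a log2 fold change of -0.23 (SE 0.25, adjusted p = 0.728, limma with Benjamini-Hochberg adjustment), and it ran from -0.39 without E15.5 replicate 2 to -0.045 without E15.5 replicate 1. Its sign turned after quantile normalization. Igfbp3 lay between 18.6 and 23.7 FPKM at E15.5 and between 22.6 and 27.8 FPKM at E18.5 (log2 fold change 0.24, SE 0.15, adjusted p = 0.551, limma). With each library left out this value lay between 0.15 and 0.34. Igfbp4 had 16.0, 19.6 and 31.2 FPKM in the E15.5 replicates 1, 2 and 3 and 28.2 to 28.7 FPKM at E18.5, so the groups overlapped (log2 fold change 0.41, SE 0.24, adjusted p = 0.536, limma), and the value ran from 0.20 without E15.5 replicate 1 to 0.68 without E15.5 replicate 3. Igfbp1 was listed at 0 in E15.5 replicate 1 and in E18.5 replicates 1 and 3, and its highest value was 0.234 FPKM. Its mean over the stage lay below the 0.1 FPKM filter, so it was not tested.

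The groups did not overlap for 2 of the 9 tested members, Igfbp2 and Igf1r, against 19.9% of all tested rows and 22.2% of protein-coding rows. Of the 9 fold changes, 7 were positive and 2 negative, with a median log2 fold change of 0.41 against 0.02 over all rows.

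Because the tables were assembled and normalized separately, levels were not tested across stages. The difference of the fold changes, E0.5 over E4.5 minus E18.5 over E15.5, was tested with limma over 22056 rows paired by Ensembl transcript. It passed for 2 of 9 members, against 2.64% of all paired rows, and both differences were negative. For Igf1 the difference was -2.09 on the log2 scale (SE 0.43, adjusted p = 0.0307, limma with Benjamini-Hochberg adjustment), and for Igfbp4 it was -1.69 (SE 0.38, adjusted p = 0.0418, limma with Benjamini-Hochberg adjustment). The adjusted p of Igf1 was 0.0519 after quantile normalization (limma). That scaling moved the median of all paired rows from -0.13 to -0.03, so differences are to be read against a median of -0.13. With each library left out the Igf1 difference lay between -2.49 and -1.78, and it passed only without E4.5 replicate 2 or 3, E15.5 replicate 1 or E18.5 replicate 1 (largest adjusted p = 0.0816, limma). The Igfbp4 difference lay between -1.96 and -1.48 and passed only without E4.5 replicate 3 or E15.5 replicate 3 (largest adjusted p = 0.107, limma).

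The other 7 members did not pass this test. Igfbp6 came nearest, with a difference of 1.38 (SE 0.33, adjusted p = 0.0537, limma with Benjamini-Hochberg adjustment). Igfbp3 had a difference of -2.49, Igfbp5 of 1.60, Igf2 of -2.40, Igfbp2 of -1.49, Igf1r of -0.999 and Igf2r of 0.60, with adjusted p-values from 0.156 to 0.434 (limma). These values moved with single libraries. The difference of Igfbp3 ran from -3.47 without E4.5 replicate 3 to -1.86 without E4.5 replicate 1, and that of Igf2 from -3.24 without E0.5 replicate 1 to -1.40 without E4.5 replicate 1. For Igfbp2 it ran from -2.21 without E4.5 replicate 2 to -0.74 without E4.5 replicate 3, for Igfbp5 from 1.303 without E0.5 replicate 3 to 2.14 without E15.5 replicate 1, and for Igf1r from -1.299 without E0.5 replicate 3 to -0.68 without E15.5 replicate 1. It lay between 0.42 and 0.80 for Igf2r and between 1.17 and 1.53 for Igfbp6. Without E4.5 replicate 3 the test passed for 4 members, Igf1, Igfbp3, Igfbp4 and Igfbp6, against 5.76% of all paired rows.

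The share of each gene in the summed FPKM of the 6 Igfbp genes does not depend on library scaling. At E0.5 Igfbp3, Igfbp4, Igfbp5 and Igfbp6 had mean shares of 23.8%, 24.2%, 24.9% and 25.4%. At E4.5 Igfbp3 made up 73.3%, 68.2% and 30.9% in replicates 1, 2 and 3, while Igfbp5 made up 1.11%, 1.96% and 10.3% and Igfbp6 made up 3.52%, 5.16% and 9.32%. The ranges of the days were separate for Igfbp3, Igfbp5 and Igfbp6, and E4.5 replicate 3 lay nearest to E0.5 for all of them. For Igfbp6 this changed without Igfbp3 in the sum, where replicate 2 lay nearest, at 16.2% against 13.2% and 13.5% in replicates 1 and 3. Igfbp4 had 21.5%, 24.3% and 44.1% at E4.5, overlapping its 23.8% to 24.8% at E0.5. With Igfbp3 left out of the sum, the Igfbp4 share was 80.5%, 76.4% and 63.8% in the E4.5 replicates 1, 2 and 3, against 28.7% to 34.6% at E0.5, so that the days were separate.

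At the labor stage Igfbp2 made up 14.2%, 19.9% and 29.1% in the E15.5 replicates 1, 2 and 3, and 45.6%, 42.4% and 34.1% in the E18.5 replicates 1, 2 and 3. Igfbp6 had 76.4%, 60.6% and 53.8% in the E15.5 replicates 1, 2 and 3, and 41.5%, 41.1% and 49.3% in the E18.5 replicates 1, 2 and 3. Both shares were separate between the days, and those of Igfbp3, Igfbp4 and Igfbp5 overlapped. Shares of 1 sum move together, and the FPKM of Igfbp6 itself overlapped, at 288 to 465 FPKM at E15.5 and 272 to 336 FPKM at E18.5. Its share with Igfbp2 left out of the sum was not tested. For each of the 5 separate shares the two-sided exact permutation test gave p = 0.1, which is the smallest p that 3 against 3 libraries allow, and the Benjamini-Hochberg value over 12 tests was 0.24. The summed level itself was 113 to 144 FPKM at E0.5, against 451.9, 326 and 115 FPKM in the E4.5 replicates 1, 2 and 3. It was 475 to 636 FPKM at E15.5 and 664 to 743 FPKM at E18.5.

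**Figure D4:**
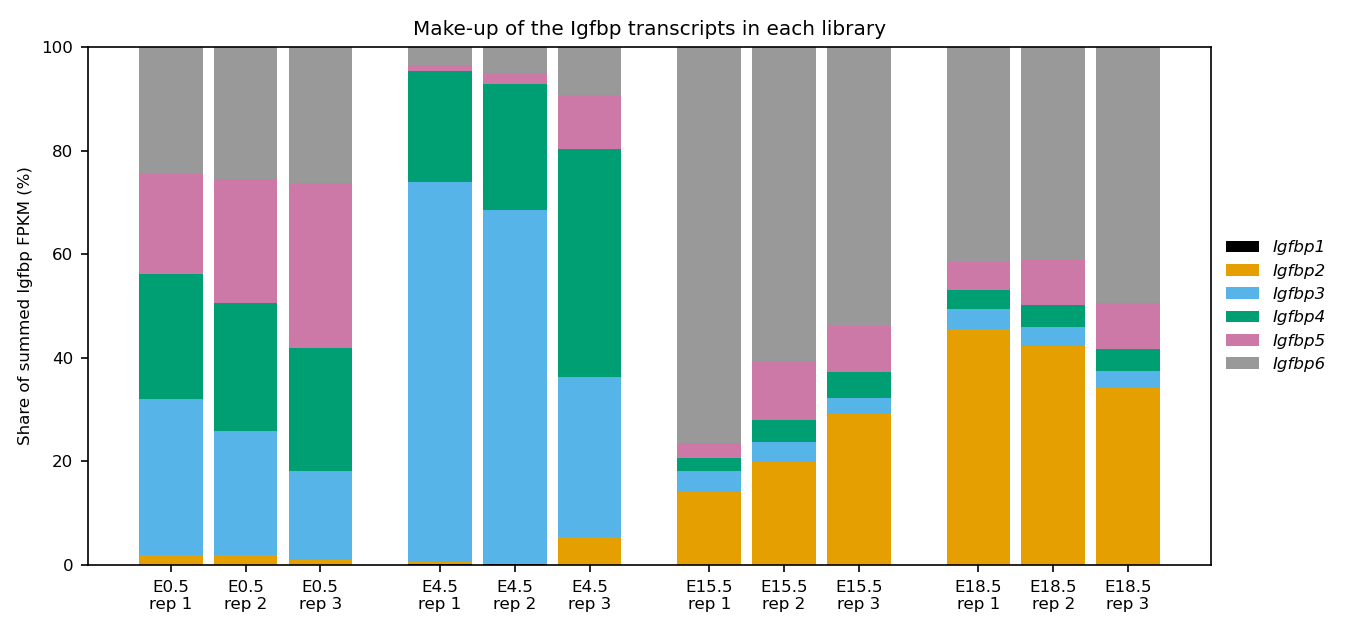
Share (%) of each Igfbp gene in the summed FPKM of Igfbp1 to Igfbp6, 1 stacked bar per library, 3 libraries per day. At E0.5 4 genes have near equal mean shares of 23.8% to 25.4%, at E4.5 Igfbp3 takes 30.9% to 73.3%, and between E15.5 and E18.5 the mean share of Igfbp2 goes from 21.0% to 40.7% and that of Igfbp6 from 63.6% to 44.0%; Igfbp1 is too low to be seen.

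Of 54 other genes of the IGF pathway, in 5 lists, 47 were tested in the first comparison and 49 in the second. At the implantation stage 1 gene, Stc2, had an adjusted p under 0.05 and 6 met the study's criterion, against 1.22% and 12.2% of all rows. DESeq2 called 7 of 46, against 9.85% of all rows, of which Stc2, Htra3, Irs2, Pik3r3 and Cdkn1c were higher at E0.5 and Eif4ebp1 and H19 lower. With any 1 library other than E4.5 replicate 3 left out, 0 passed (edgeR). At the labor stage 0 had an adjusted p under 0.05 and 3 met the study's criterion, against 0.0259% and 6.05% of all rows. The labor stage count of 0 is from limma, and Pappa2 passed when E15.5 replicate 1 was left out (adjusted p = 0.0376, limma with Benjamini-Hochberg adjustment), as did 0.0841% of all rows. Without E4.5 replicate 3, 5 of the 47 genes passed at the implantation stage, against 6.08% of all rows, with Stc2, Pik3r3 and Cdkn1c higher at E0.5 and Grb10 and H19 lower.

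The first list held 9 proteases and IGFBP complex genes. Stc2, an inhibitor of PAPPA, had 5.80, 4.34 and 4.60 FPKM in the E0.5 replicates 1, 2 and 3 and 1.52, 1.79 and 2.20 FPKM in the E4.5 replicates 1, 2 and 3. The groups did not overlap, with a log2 fold change of 1.43 (SE 0.20, adjusted p = 0.0337, edgeR with Benjamini-Hochberg adjustment). With each library left out the fold change lay between 1.31 and 1.56, and it passed only without E4.5 replicate 3 (adjusted p = 0.00805, edgeR), with adjusted p-values of 0.0975 to 0.144 (edgeR) in the other 5 fits. At the labor stage Stc2 had 1.17, 2.22 and 1.85 FPKM at E15.5 and 0.657, 0.914 and 1.22 FPKM at E18.5 (log2 fold change -0.84, adjusted p = 0.362, limma). Htra3, a serine protease, had 8.86, 12.6 and 19.7 FPKM in the E0.5 replicates 1, 2 and 3 and 2.16, 5.50 and 5.64 FPKM in the E4.5 replicates 1, 2 and 3. It met the study's criterion without overlap (log2 fold change 1.66, SE 0.43, adjusted p = 0.125, edgeR).

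Pappa2, the protease that cuts IGFBP5, had 1.23, 0.354 and 0.521 FPKM in the E15.5 replicates 1, 2 and 3 and 5.64, 8.60 and 10.5 FPKM in the E18.5 replicates 1, 2 and 3. Pappa2 had a log2 fold change of 3.49 (SE 0.43, adjusted p = 0.0715, limma with Benjamini-Hochberg adjustment), the largest of the pathway genes tested at that stage. Of the 11 trophoblast and placenta markers tested at this stage, 8 had a positive fold change and 3 a negative one. The 1 that passed was Prl8a6, a placental prolactin family gene, with 0.150, 0.108 and 0.114 FPKM in the E15.5 replicates and 12.3, 16.0 and 5.35 FPKM in the E18.5 replicates (log2 fold change 5.53, adjusted p = 0.0218, limma). Tpbpa, a marker of placental spongiotrophoblast, had 6.20, 1.41 and 1.66 FPKM in the E15.5 replicates and 42.2, 52.7 and 31.9 FPKM in the E18.5 replicates (log2 fold change 4.02, adjusted p = 0.0788, limma). The part of trophoblast RNA in the Pappa2 values was not tested. Pappa lay between 2.02 and 4.83 FPKM in the early libraries and between 0.979 and 1.41 FPKM in the late ones, and it met neither call rule. The median log2 fold changes of the list were -0.10 and -0.01 in the first and second comparison.

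The insulin receptor and insulin list (7 genes) had no call at either stage. Insr, the receptor most like Igf1r, had mean levels of 8.59 FPKM at E0.5, 8.96 FPKM at E4.5, 5.16 FPKM at E15.5 and 5.87 FPKM at E18.5. Ins1 and Ins2 were at 0 at the implantation stage. They had no row with an Ensembl transcript at the labor stage, so no level is known there.

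Among 13 adaptors and inhibitors, Grb14 met the study's criterion at the implantation stage, with 0.193, 0.150 and 0.301 FPKM at E0.5 against 0.658, 0.574 and 10.4 FPKM at E4.5. The value of 10.4 FPKM stood in E4.5 replicate 3, the library with the high ovary marker sum, and the log2 fold change went from -4.09 to -1.52 without it. Among 21 PI3K, AKT and mTOR genes, Pik3r3, a regulatory subunit of PI3K, had 6.80 to 7.94 FPKM at E0.5 and 2.36 to 4.77 FPKM at E4.5 (log2 fold change 1.05, SE 0.26, adjusted p = 0.118, edgeR). Foxo4, a transcription factor that AKT keeps out of the nucleus, had 6.91, 5.04 and 11.1 FPKM in the E15.5 replicates and 16.3, 21.4 and 10.9 FPKM in the E18.5 replicates. The Foxo4 groups overlapped (log2 fold change 1.09, SE 0.34, adjusted p = 0.286, limma). The medians of the adaptor list were -0.19 and 0.02, and those of the PI3K list were -0.04 and 0.09.

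The last list held 4 imprinted partners of Igf2 and Igf2r. Cdkn1c, an imprinted growth inhibitor, met the study's criterion at both stages. It had 4.45, 3.12 and 5.13 FPKM at E0.5 against 1.34, 1.84 and 0.983 FPKM at E4.5 (log2 fold change 1.61, SE 0.33, adjusted p = 0.0743, edgeR). It had 3.30, 2.83 and 6.58 FPKM at E15.5 and 16.2, 15.7 and 9.56 FPKM at E18.5 (log2 fold change 1.74, SE 0.35, adjusted p = 0.153, limma). Neither pair of days overlapped. H19 had 0.383, 0.645 and 0.863 FPKM at E0.5 against 4.16, 2.11 and 0.877 FPKM at E4.5, and met the study's criterion there (log2 fold change -1.93, SE 0.63, adjusted p = 0.195, edgeR).

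**Figure D5:**
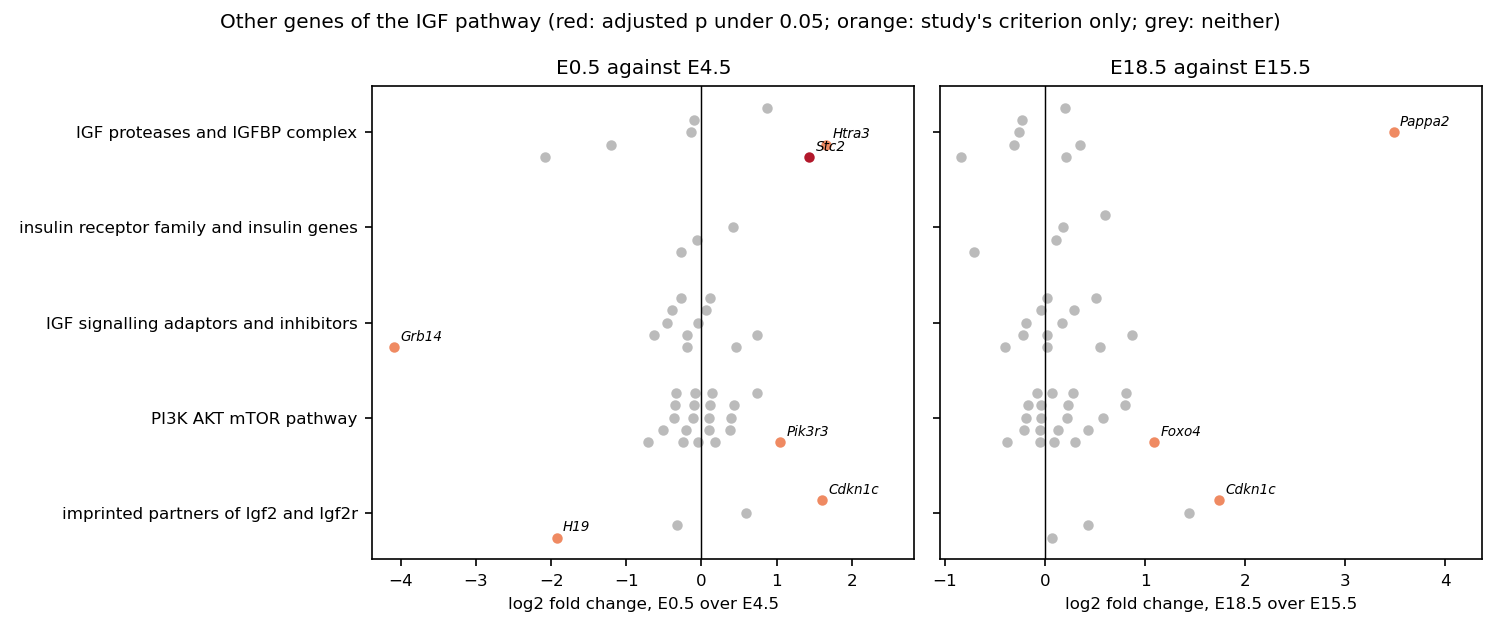
Log2 fold changes (horizontal axis) of the tested genes of 5 IGF pathway lists (rows; vertical offsets within a row only part the points), E0.5 over E4.5 at left (47 genes) and E18.5 over E15.5 at right (49 genes). Red marks an adjusted p under 0.05 (Stc2 at left), orange the study's criterion only, grey neither; most genes lie near 0 on both sides, and Grb14 and Pappa2 lie farthest from it.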

How the data were processed

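RNA of 12 uteri, 3 per day, had been sequenced. Per the study's methods the authors trimmed reads with Cutadapt, mapped them with Bowtie2 and Tophat2, and estimated FPKM with StringTie and Ballgown. The submitters' processing notes name Bowtie 0.12.2, HISAT2 2.0, StringTie 1.3.0 and the builds mm8 and mm10. The labels name poly(A) selection and the methods name ribosomal RNA removal, so which was used is not settled. The authors deposited FPKM per sample for both stages, and whole-number counts for the implantation stage, whose assignment to genes is not stated. The value 0.0001 stands for 0 in the implantation FPKM table and was set back to 0. Between 1.02% and 1.86% of the counts lay in rows that name no gene, which stayed in the main test, since they are assembled loci. No value column was left unused.

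A row was tested where its 6 libraries averaged 0.1 FPKM or more. The implantation stage used edgeR 4.0.16 (TMM, quasi-likelihood F-test) on counts, and its standard errors are the fold change divided by the square root of F. The labor stage used limma-trend (version 3.58.1, R 4.3.3) on log2(FPKM + 0.1), and the stage difference used limma over all 12 libraries. Adjusted p-values are Benjamini-Hochberg over all tested rows. The tests were tried on simulated data. Igfbp shares used an exact permutation test over libraries (NumPy 2.4.6). The mice are separate animals, so p-values measure the spread between mice.

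The members and lists were chosen with earlier results of these data known. The text names all 10 members, pathway genes that passed an adjusted p or met the study's criterion (at most 8 per stage), and the 3 protein-coding genes of at least 1 FPKM most correlated with each ligand. Marker genes, Airn, Pappa, Insr and the insulin genes were named as background values, chosen after their values were seen. Of 19279 protein-coding rows with a RefSeq symbol, 19274 overlap the RefSeq gene in GRCm38. Alternatives were upper quartile, 75th percentile and quantile scaling, pseudocounts of 0.01 and 1, limma on FPKM, limma without trend, no filter, a mean of at least 1 FPKM, DESeq2 1.42.0, a replicate block, each library left out and shares without the leading Igfbp. Library totals without TMM and rows with a gene name only were added after seeing the data.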

Additional observations from a re-analysis of the deposited data

Results flagged for a closer look

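Igf1, Igfbp4 and Stc2 drew attention because their day effect differed between the stages in a test of the difference itself. The log2 fold change of E0.5 over E4.5 minus that of E18.5 over E15.5 was -2.09 for Igf1 and -1.69 for Igfbp4 (adjusted p of 0.0307 and 0.0418, limma with Benjamini-Hochberg adjustment). For Stc2 it was 2.21 (standard error 0.39, adjusted p = 0.0163, limma with Benjamini-Hochberg adjustment), with all E0.5 libraries above all E4.5 libraries and overlapping groups at the labor stage.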

How the results depend on the processing

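Calls at the implantation stage depended strongly on the setting. The number of members with an adjusted p under 0.05 was 1, against 6 with DESeq2, 0 with upper quartile scaling, 0 with a replicate block and 0 to 6 with each library left out. Of all rows, 730 passed, against 5885 with DESeq2, 1156 with a mean of at least 1 FPKM, 0 with the replicate block and 0 to 3629 with each library left out, the lowest without E0.5 replicate 2 and the highest without E4.5 replicate 3. The 6 members passing with DESeq2 were the same genes as those passing without E4.5 replicate 3, and the study's criterion called 4 to 6 members under the alternatives. It called 7284 rows, against 3066 with limma on log2(FPKM + 1) and 4397 above 1 FPKM on average. Of the pathway genes 1 passed, against 7 with DESeq2, 0 with the replicate block and 0 to 5 with each library left out.

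At the labor stage 8 rows passed, against 4 with a pseudocount of 1, 27 without trend, 4 without a filter, 3 with a mean of at least 1 FPKM, 2 with the replicate block and 0 to 28 with each library left out (28 without E18.5 replicate 3, 26 without E15.5 replicate 1, 0 without E18.5 replicate 1). No member passed under any of these. The study's criterion called 1870 rows, against 514 with a pseudocount of 1 and 799 with a mean of at least 1 FPKM. It called 1 member, against 2 (Igf2 added) with a pseudocount of 1 and with a mean of at least 1 FPKM, and 1 to 2 with each library left out. The stage difference passed for 583 rows, against 71 with the replicate block and 193 to 1271 with each library left out. It passed for 2 members, against 1 after quantile normalization, 0 with the replicate block and 0 to 4 with each library left out.

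Of the fold changes of members, 7 turned sign under an alternative and 250 kept their direction and side of the threshold. At the implantation stage these were Igf2 without E4.5 replicate 1 (2.22, range -3.64 to 2.22 with each library left out) and Igfbp2 without E4.5 replicate 3 (0.42, range -1.09 to 0.42). At the labor stage they were Igf1 without E15.5 replicate 1 (0.04) or E18.5 replicate 1 (0.12, range -0.21 to 0.12), Igf2r (-0.13, range -0.13 to 0.21) and Igfbp5 (-0.093, range -0.093 to 0.74) without E15.5 replicate 1, and Igfbp6 after quantile normalization (0.013). The cause was not tested. In shares without Igfbp3, the difference of Igfbp4 between E0.5 and E4.5 grew from -5.74 to -41.6 points.

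The replicate numbers do not pair the samples: deviations from the group means correlated at -0.06, 0.02 and -0.07 for numbers 1, 2 and 3 at the implantation stage and at 0.00, 0.00 and -0.04 at the labor stage. With the replicate block the log2 fold change of Igf1 was -2.16 (adjusted p = 0.124, edgeR) and its stage difference -2.09 (adjusted p = 0.0841, limma), and the stage difference of Igfbp4 had an adjusted p of 0.119 (limma). For Stc2 the block gave an adjusted p of 0.129 (edgeR) at the implantation stage and of 0.0524 (limma) for the stage difference. With 3 mice per day and an unknown depth of the labor stage libraries, a p that misses the threshold does not show that levels were equal.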

Other observations

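Igfbp7, a low-affinity IGF binding protein outside the 6 classical ones, had 10.9 to 15.9 FPKM at E0.5 and 13.1 to 17.0 FPKM at E4.5, with a log2 fold change of -0.14 (standard error, SE, 0.22, adjusted p = 0.779, edgeR with Benjamini-Hochberg adjustment). At the labor stage it had 180, 125 and 178 FPKM in the E15.5 replicates 1, 2 and 3 and 235, 190 and 186 FPKM in the E18.5 replicates 1, 2 and 3. The lowest E18.5 library lay above the highest E15.5 library, with a log2 fold change of 0.35 (SE 0.21, adjusted p = 0.551, limma with Benjamini-Hochberg adjustment). Htra1, a protease that cuts IGFBPs, stood out in 1 library per stage, at 58.4 FPKM in E4.5 replicate 3 against 9.71 and 10.1 FPKM in the other E4.5 libraries, and at 78.8 FPKM in E15.5 replicate 1 against 29.1 and 31.3 FPKM in the other E15.5 libraries. Stc1, the homolog of Stc2, had 15.4 FPKM in E4.5 replicate 3 against 1.68 and 1.41 FPKM in the other E4.5 libraries. These genes were chosen after their values were seen.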
